A study of Mus musculus with 6 samples.

Results

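Vascular endothelial growth factor (VEGF) signalling was described through 7 genes, the ligand genes Vegfa, Vegfb, Vegfc and Pgf and the receptor genes Kdr, Flt1 and Flt4. They were taken by symbol from a table of 41214 genes, in which each had 1 row. All 7 passed the filter on low counts that left 10952 genes for testing. The cells came from mouse hearts at E14.5, 1 day after tamoxifen at E13.5 (embryonic days), and were sorted for CD31 and for green fluorescence. CD31 is an endothelial surface protein, and the fluorescence came with the transgene Pdgfb-iCreERT2-IRES-EGFP. That transgene places a tamoxifen-inducible Cre recombinase under Pdgfb, which is active in endothelial cells but not in every one of them. The KO libraries (replicates 1 and 2, genotype Dll4-/-) came from Dll4flox/flox transgenic mice crossed to Dll4 flox/flox females, so that Cre could remove both copies of this Notch ligand gene. The het libraries (replicates 2 and 3, Dll4+/-) came from the same transgenic mice crossed to wildtype, with 1 floxed and 1 intact allele. The wt libraries (replicates 4 and 5, WT) came from transgenic mice without the floxed allele crossed to wildtype females. All 3 groups thus carried the Cre and EGFP transgene and were exposed to tamoxifen. Hearts came from several litters, and the labels give neither the number of hearts behind a library nor the sex of the embryos. Nothing states that the 2 libraries of a group were prepared from separate embryos, so every p-value here measures only the spread between these libraries.

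VEGF-A, the protein of Vegfa, is secreted by tissues short of oxygen and drives the sprouting and growth of vessels mainly through the receptor tyrosine kinase VEGFR2, encoded by Kdr. VEGFR1, encoded by Flt1, binds VEGF-A, VEGF-B and placental growth factor but signals weakly, and its membrane-bound and soluble forms act as traps that limit VEGF-A. VEGFR3, encoded by Flt4, binds VEGF-C and is known for its part in lymphatic growth and in early angiogenic sprouts. In the developing heart, VEGF-A from the myocardium and VEGF-C from the outer wall are both known to guide coronary vessels. In sprouting endothelium VEGF-A raises Dll4 in the leading tip cell, and Dll4 then signals through Notch in its neighbours. The series asks what normal, reduced and absent Dll4 changes in coronary endothelial cells.

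Levels are given as CPM, the counts of a gene relative to the library total after scaling with edgeR's TMM factors. The libraries held between 1537908 and 6501798 counts, most in the 2 KO libraries. Dll4 itself stood at 16.5 ± 3.97 CPM in KO, 83.5 ± 3.30 in het and 189.5 ± 9.32 in wt (SD, n = 2 each), which follows the labels. The 10 endothelial markers examined were all detected and summed to 4710 to 4777 CPM in KO, 6069 to 6451 in het and 6419 to 6550 in wt. In KO against wt 3 of them fell and 1 rose, where 17.3% of all tested genes fell and 14.7% rose. Most of the lower sum lay in Cdh5, at 401 ± 28.1 CPM in KO and 1955 ± 37.5 in wt (SD, n = 2 each). Emcn and Eng fell by less, Tek rose, and the rest were not called. Pecam1, the gene of CD31, stood at 868 ± 33.9 CPM in KO, 734 ± 25.7 in het and 826 ± 11.1 in wt. The KO libraries stood apart in makeup before any VEGF gene was considered. Lars2, the gene of a mitochondrial leucyl-tRNA synthetase, took at most 0.0611% of counts in a KO library and at least 16.4% in each het and wt library. Mitochondrial ribosomal RNA took 0.0954% to 0.108% in KO and 1.33% to 3.22% in het and wt. The 7SL RNA took 0.00125% to 0.00235% in KO and 0.129% to 0.234% in het and wt. The labels give no preparation date, and whether the KO libraries formed a batch of their own cannot be told apart from their genotype. With scaling by library size only, all genes in KO against wt had a median log2 fold change of 0.347 in place of -0.0155, so every direction below is relative to the bulk of genes. Under that scaling, whose library totals include Lars2, 3878 genes were called higher and 1034 lower, against 1610 and 1899 with TMM. With TMM and without Lars2, mitochondrial, 7SL and 7SK genes the median was -0.00669, with 1672 called higher and 1884 lower.

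In KO cells Vegfa rose and Vegfc fell, and among the receptors Kdr and Flt4 rose while Flt1 fell. Vegfb and Pgf did not pass the test. Genes are said to have risen or fallen, or to be called, where edgeR's quasi-likelihood test gave a p under 0.05 after Benjamini-Hochberg adjustment over all genes tested. Of the 7 genes 5 were called, 3 higher and 2 lower, where 32.0% of all tested genes were called, 14.7% higher and 17.3% lower. Without wt replicate 4 the number of genes called fell to 2043, against 3509 with all libraries. In 6 of the 7 genes the KO and wt libraries did not overlap, as in 67.7% of all tested genes. Change was therefore common among all genes in this comparison, and the share of VEGF genes called rests on few genes. Vegfa had a higher log2 fold change than 98.1% of tested genes and Vegfc a higher one than 1.37% of them, while the 3 receptor genes lay within the bulk, between 23.6% and 84.9%.

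**Figure D1:**
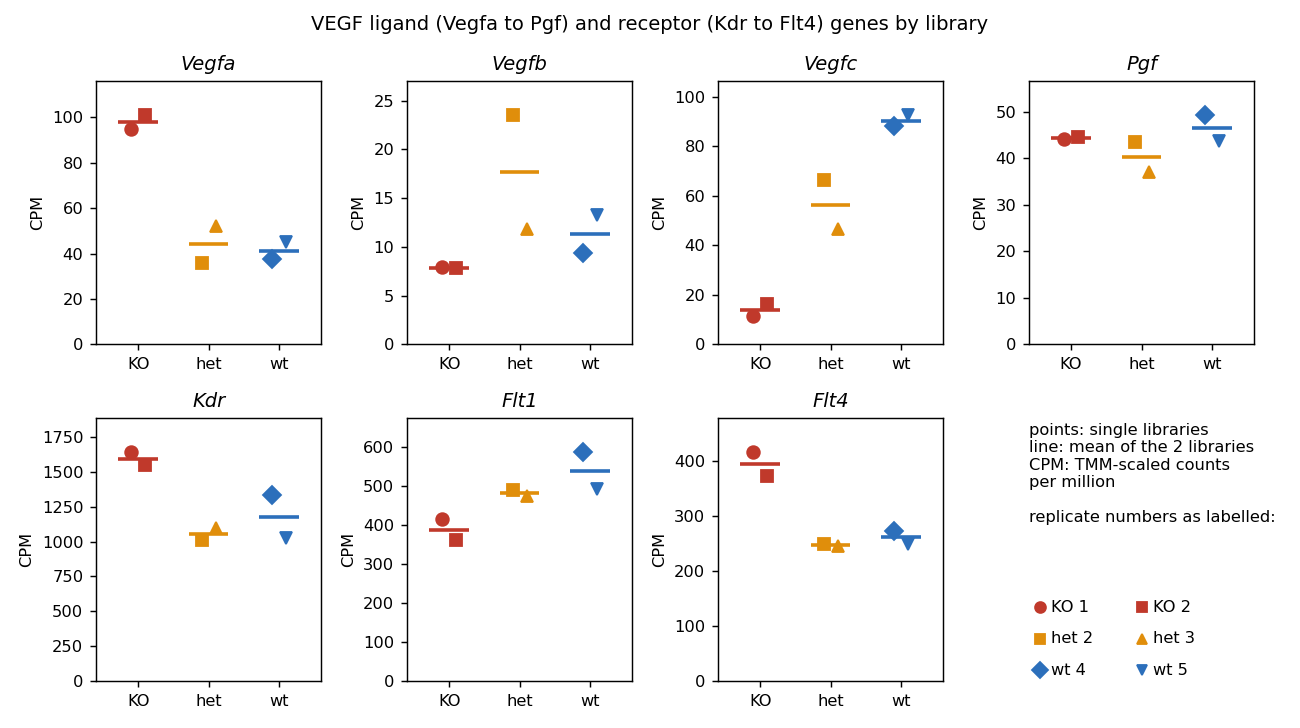
CPM (vertical axis, from 0) of each VEGF ligand and receptor gene in the KO, het and wt groups; each point is a library and each line the mean of the 2 libraries of a group. Vegfa was near 100 CPM only in the KO libraries, Vegfc was lowest in KO and intermediate in het, and Flt4 was above 370 CPM only in KO.

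Vegfa (chromosome 17, 46016993 to 46032369, minus strand, GRCm38; ENSMUSG00000023951) stood at 95.1 and 100.9 CPM in the KO libraries and at 37.7 and 44.9 CPM in the wt libraries. Both KO libraries lay above both wt libraries, by far more than the distance between replicates. The log2 fold change was 1.26 ± 0.18 (SE), or 2.39-fold higher in KO, with edgeR adjusted p = 1.48e-05. Across the 15 other ways of processing the data it lay between 1.08 and 1.62, and the call held in each of them. Cardiac muscle cells are a known source of VEGF-A in the embryonic heart. The 12 cardiomyocyte markers summed to 45.6 to 51.7 CPM in the KO libraries and 94.3 to 112 CPM in the wt libraries. Of the 7 that were tested 3 fell and none rose, where 17.3% of all tested genes fell and 14.7% rose. One of the 12, Ryr2, had 0 reads in the KO and wt libraries. Cardiomyocyte markers thus stood lower in the libraries where Vegfa stood higher, and their part in its level was not tested. In sorted bulk cells, fewer cells of a type and less RNA in each of them cannot be told apart.

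Vegfc (chromosome 8, 54077606 to 54187096, plus strand; ENSMUSG00000031520) stood at 11.6 and 16.3 CPM in KO and at 88.2 and 92.4 CPM in wt. These values rest on 89 and 96 reads in the deeper KO libraries and on 206 and 146 reads in the wt libraries. The groups did not overlap, and the log2 fold change was -2.71 ± 0.21 (SE), 6.53-fold lower in KO (edgeR adjusted p = 3.04e-09). It was the largest change of the 7 genes and kept its call in all 15 alternatives, between -2.95 and -2.34. Markers of the other cells that a heart sort can hold were set beside it. The 10 mural and fibroblast markers summed to 121 to 232 CPM in KO and 168 to 227 CPM in wt, with 2 called lower and 1 higher of 8 tested. The 5 endocardial markers summed to 262 to 366 CPM in KO and 388 to 397 CPM in wt, with none called. The 8 macrophage markers summed to 9.16 to 27.9 CPM in KO and 23.1 to 69.6 CPM in wt, with 2 of 6 tested called lower. Of all tested genes 17.3% were called lower and 14.7% higher. The 5 epicardial markers summed to 73.2 to 76.5 CPM in KO and 102 to 107 CPM in wt without overlap. Of all tested genes 34.5% were lower in KO without overlap. The sum was almost wholly Wt1, the 1 epicardial marker tested. Wt1 was called lower, at 69.0 and 75.1 CPM in KO and 106 and 96.2 CPM in wt. Upk3b, Tbx18, Msln and Aldh1a2 stood at 3.16 CPM or less in every KO and wt library, so the sum says little beyond Wt1. The part of these cells in the level of Vegfc was not tested.

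Pgf, the gene of placental growth factor (chromosome 12, 85166635 to 85177790, minus strand; ENSMUSG00000004791), held 44.2 and 44.6 CPM in KO and 49.2 and 43.7 CPM in wt. The KO values lay between the 2 wt values. The log2 fold change was -0.07, with a 95% interval from -0.44 to 0.29, and its sign turned with scaling by library size only (0.29) and without wt replicate 4 (0.06). Vegfb (chromosome 19, 6982473 to 6987651, minus strand; ENSMUSG00000024962), whose protein binds only VEGFR1 of the 3 receptors, was the most weakly counted member with 61 and 46 reads in KO and 22 and 21 in wt. It held 7.92 and 7.80 CPM in KO and 9.42 and 13.3 CPM in wt. Both KO values were below both wt values, but at this depth the interval of the log2 fold change ran from -1.31 to 0.31 and no difference was called (edgeR adjusted p = 0.351).

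Kdr (chromosome 5, 75932827 to 75978458, minus strand; ENSMUSG00000062960) had the highest level of the 7 genes in every library, in CPM and per length. It stood at 1643 and 1548 CPM in KO and at 1332 and 1025 CPM in wt. Both KO libraries were higher, but the wt libraries differed from each other by more than the gap between the nearest KO and wt libraries. The log2 fold change was 0.44 ± 0.11 (SE), 1.35-fold higher in KO (edgeR adjusted p = 0.00436). Without wt replicate 5, the lower of the wt libraries, it was 0.27 and the call ended (adjusted p = 0.0913, the highest over all alternatives, the lowest being 8.93e-07).

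Flt4 (chromosome 11, 49609263 to 49652739, plus strand; ENSMUSG00000020357) stood at 417 and 373 CPM in KO and at 274 and 250 CPM in wt. The 2 groups were well separated. The log2 fold change was 0.59 ± 0.10 (SE), 1.51-fold higher in KO (edgeR adjusted p = 1.38e-04), and the call held in all 15 alternatives. Flt4 also marks lymphatic endothelium. The 5 lymphatic markers summed to 17.8 to 31.6 CPM in KO and 24.0 to 70.2 CPM in wt, and neither of the 2 tested was called. Prox1, the factor that defines lymphatic identity, stood at 8.18 ± 4.03 CPM in KO and 12.1 ± 4.38 in wt (SD, n = 2 each).

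Flt1 (chromosome 5, 147561604 to 147726011, minus strand; ENSMUSG00000029648) moved the other way. It stood at 417 and 361 CPM in KO and at 588 and 493 CPM in wt, with both KO libraries below both wt libraries. The log2 fold change was -0.48 ± 0.10 (SE), 1.39-fold lower in KO (edgeR adjusted p = 0.00132). The call ended without wt replicate 4 (-0.30, adjusted p = 0.112) and with scaling by library size only (-0.11, adjusted p = 0.407), and adjusted p over all alternatives ranged from 2.66e-04 to 0.407. The table gives 1 value per gene, so the membrane-bound and soluble forms of the Flt1 message are summed.

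**Figure D2:**
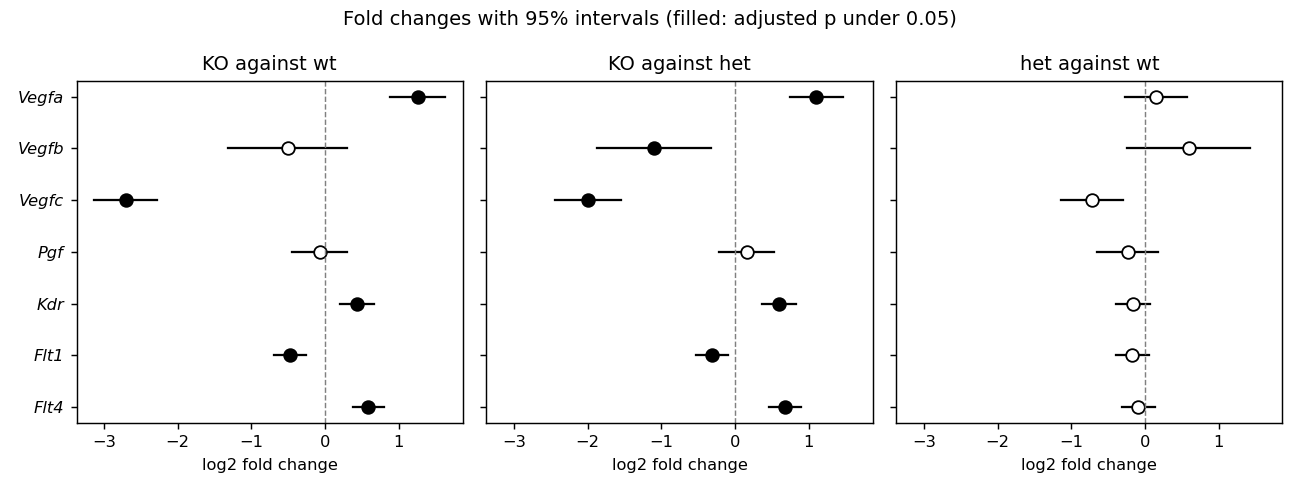
Log2 fold change (horizontal axis) of the 7 genes in KO against wt, KO against het and het against wt, with 95% intervals from the edgeR fit; filled points had an adjusted p under 0.05. The intervals of Vegfa, Vegfc, Kdr, Flt1 and Flt4 lay on 1 side of 0 in both comparisons with KO, and no gene was called in het against wt.

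No VEGF gene was called with a single Dll4 allele lost. In het against wt none of the 7 passed edgeR's test, where 0.173% of all tested genes did, 0.128% higher and 0.0457% lower. That was 19 genes, with 893 at an unadjusted p under 0.05, and the number ran from 2 without wt replicate 4 to 76 without het replicate 3. None of the 7 was called with DESeq2 or limma-voom either. Vegfc came nearest, at 66.2 and 46.4 CPM in het and 88.2 and 92.4 CPM in wt. Both het libraries were lower than both wt libraries. The log2 fold change was -0.72 ± 0.20 (SE), 1.64-fold lower in het, and its unadjusted edgeR p of 0.00188 became 0.206 after adjustment. With no filter on low counts the adjusted p was 0.0225, and over the other alternatives it reached 0.976. Vegfa held 35.6 and 52.3 CPM in het and 37.7 and 44.9 CPM in wt, so that the 2 wt libraries lay inside the het range. Vegfb differed most between the het libraries, 23.5 CPM in replicate 2 and 11.9 in replicate 3, from 33 and 34 reads. The cardiomyocyte markers summed to 163 to 217 CPM in the het libraries and the mural and fibroblast markers to 308 to 374 CPM, both above the wt range. Macrophage and endocardial markers spread widely within het, at 60.0 to 204 CPM and 321 to 678 CPM. Most markers on the macrophage and endocardial lists were higher in het replicate 2, where Vegfb was higher, by widely differing amounts. The macrophage list gene Ptprc was not, at 3.56 CPM in het replicate 2 and 4.19 in het replicate 3. No marker on these 4 lists was called in het against wt, and the part of these cells in the het values was not tested. Pgf held 43.4 and 37.0 CPM in het, both under the lower wt library, the nearer of them by very little.

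None of the receptors was called in het either. Kdr held 1011 and 1096 CPM in het and 1332 and 1025 CPM in wt, Flt1 489 and 474 CPM in het and 588 and 493 CPM in wt, and Flt4 249 and 245 CPM in het and 274 and 250 CPM in wt. For Flt1 and Flt4 both het libraries lay just under the lower wt library. With Vegfc and Pgf, 4 of the 7 genes had both het libraries below both wt libraries, as had 18.8% of all tested genes, and none had both above, as had 19.2%; 38.0% did not overlap either way. The 95% intervals of the log2 fold change ran from -0.39 to 0.07 for Kdr, from -0.39 to 0.05 for Flt1 and from -0.31 to 0.13 for Flt4. The changes measured in KO against wt for these 3 genes lie outside these intervals.

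Loss of the second allele, KO against het, gave 6 calls among the 7 genes, 3 higher and 3 lower, where 31.2% of all tested genes were called, 13.9% higher and 17.2% lower. In all 7 the KO and het libraries did not overlap, 4 with KO higher and 3 with KO lower, as in 64.5% of all tested genes (31.4% higher and 33.0% lower). The KO libraries are the same as in the comparison with wt, so neither comparison is independent of the other. Vegfa was 2.15-fold higher in KO than in het, Flt4 1.60-fold and Kdr 1.51-fold, with edgeR adjusted p of 5.10e-05, 3.35e-05 and 3.47e-04, and these 3 calls held in all 15 alternatives. Vegfc was 3.97-fold lower in KO than in het (edgeR adjusted p = 4.69e-07) and its call held likewise. Vegfb was 2.14-fold lower in KO than in het and Flt1 1.24-fold lower, with edgeR adjusted p of 0.0283 and 0.0295. The Vegfb call was lost in 8 of 15 alternatives, among them those without het replicate 2, KO replicate 1, KO replicate 2 or wt replicate 4. Over the alternatives its log2 fold change lay between -1.57 and -0.58. The Flt1 call was lost in 9, among them those without het replicate 2, het replicate 3, KO replicate 2 or wt replicate 4, and its sign turned with scaling by library size only (0.07). Some marker sums of other cells stood lower in KO than in het, and others overlapped. The cardiomyocyte markers summed to 45.6 to 51.7 CPM in KO and 163 to 217 in het, with 7 of 7 tested called lower. The mural and fibroblast markers summed to 121 to 232 CPM in KO and 308 to 374 in het, with 4 of 8 called lower, and the macrophage markers to 9.16 to 27.9 CPM in KO and 60.0 to 204 in het, with 3 of 6 called lower. The 5 epicardial markers summed to 73.2 to 76.5 CPM in KO and 105 to 122 in het, with the 1 tested called lower. Endocardial sums overlapped, at 262 to 366 CPM in KO and 321 to 678 in het. So did lymphatic sums, at 17.8 to 31.6 CPM in KO and 29.3 to 77.6 in het. The 9 erythroid markers summed to 184 to 237 CPM in KO and 118 to 379 in het. No marker on these last 3 lists was called. The part of these cells in the VEGF values was not tested.

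A further contrast asked whether the het level, on a log scale, lay away from the point midway between wt and KO. Of all tested genes 11.5% did, 7.81% above it and 3.68% below it. Flt4 lay below the midpoint by 0.38 ± 0.09 (SE; edgeR adjusted p = 0.00832) and Kdr by 0.38 ± 0.09 (edgeR adjusted p = 0.0134), which places both het levels nearer to wt. Vegfc lay above the midpoint by 0.64 ± 0.18 (SE; edgeR adjusted p = 0.0241), again nearer to wt. Vegfa, Vegfb, Flt1 and Pgf were not called. Of the 14 alternatives run for this contrast, 2 ended the Flt4 call, 3 the Kdr call and 6 the Vegfc call. The left-out libraries that did so were het replicate 3 for Flt4 (-0.38), het replicate 2 (-0.33) or het replicate 3 (-0.44) for Kdr, and het replicate 2 (0.39), KO replicate 1, wt replicate 4 or wt replicate 5 for Vegfc.

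Because a long message yields more fragments, genes were compared with each other as CPM per kilobase of annotated exon. In wt cells Kdr led at 131 ± 24.0, followed by Flt1 at 40.0 ± 4.96, Vegfc at 36.9 ± 1.21, Flt4 at 31.8 ± 2.03, Pgf at 16.0 ± 1.36, Vegfa at 9.64 ± 1.20 and Vegfb at 7.07 ± 1.71 CPM per kilobase (SD, n = 2). Of the neighbours in that order only Flt1 and Vegfc overlapped between libraries. In KO cells the order was Kdr at 177 ± 7.45, Flt4 at 47.9 ± 3.81, Flt1 at 28.8 ± 2.94, Vegfa at 22.9 ± 0.968, Pgf at 15.3 ± 0.111, Vegfc at 5.68 ± 1.36 and Vegfb at 4.90 ± 0.0524, and Vegfc and Vegfb overlapped. In het cells it was Kdr at 117 ± 6.68, Flt1 at 35.7 ± 0.786, Flt4 at 30.0 ± 0.306, Vegfc at 23.0 ± 5.72, Pgf at 13.9 ± 1.57, Vegfb at 11.0 ± 5.13 and Vegfa at 10.3 ± 2.76, where Vegfb overlapped both Pgf and Vegfa. Flt1 stood above Flt4 in het and wt and below it in KO. With the longest transcript as the length of each gene, Vegfc and Vegfb changed places in KO, and Vegfc and Flt4 in wt.

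Within a library the balance of the receptors does not depend on how libraries are scaled to each other. Per kilobase, Kdr stood at 5.89 and 6.42 times Flt1 in the KO libraries, 3.09 and 3.46 times in the het libraries and 3.39 and 3.11 times in the wt libraries. The het and wt ratios overlapped and the KO ratios stood above both. Flt4 stood at 1.64 and 1.69 times Flt1 in KO, 0.833 and 0.847 times in het and 0.764 and 0.832 times in wt. The ratio of Kdr to Flt4, by contrast, was 3.59 and 3.79 in KO, 3.71 and 4.08 in het and 4.44 and 3.74 in wt, with all 3 groups overlapping. Flt1 made up 11.7% and 11.0% of the summed receptor messages in KO, 20.3% and 18.9% in het and 19.4% and 20.2% in wt. The ratios and shares per kilobase, here and for the ligands, rest on annotated exon length and change in size with another length. By longest transcript, Flt4 stood at 66.6 and 59.6 CPM per kilobase in KO and Flt1 at 60.5 and 52.3. In wt Flt4 then stood at 43.7 and 40.0 and Flt1 at 85.2 and 71.5. With 2 libraries a group an exact permutation test cannot give a two-sided p below 0.333, so these ratios are given without a test.

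The ligand balance shifted further. Vegfa stood at 4.70 and 3.54 times Vegfc per kilobase in KO. It stood at 0.307 and 0.645 of Vegfc in het and at 0.244 and 0.278 in wt. Of the summed ligand messages Vegfa made up 47.2% and 46.7% in KO, 12.8% and 23.8% in het and 13.0% and 14.7% in wt. Vegfc made up 10.03% and 13.2% in KO, 41.6% and 36.9% in het and 53.3% and 52.7% in wt. The summed ligand level per kilobase was 47.1 and 50.4 in KO, 65.0 and 51.3 in het and 67.6 and 71.5 in wt, lower in both KO libraries than in both wt libraries.

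**Figure D3:**
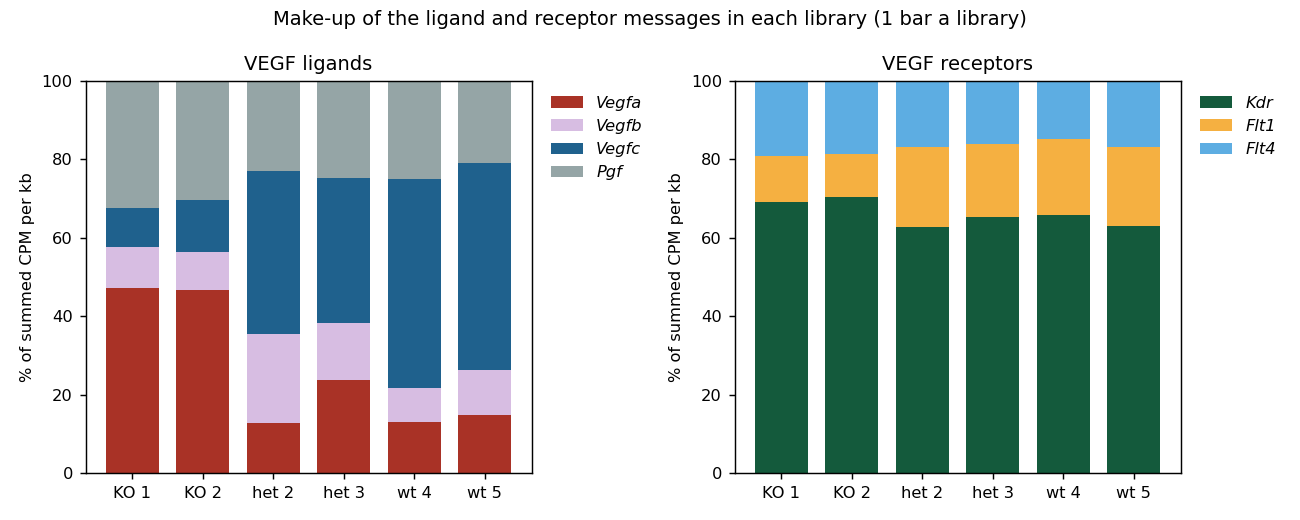
Share of each gene in the summed CPM per kilobase (vertical axis, percent) of the 4 ligand genes (left) and the 3 receptor genes (right), 1 bar for each library. Vegfc is the largest ligand share in the 4 het and wt bars and Vegfa in the 2 KO bars, while Kdr is the largest receptor share in all 6.

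Sequences before the start sites were taken for the genes called in KO against wt whose RefSeq promoter window (GRCm38.p6) lay outside annotated exons. These 4 sequences are shown with matches to a pair of motifs. The first is TGGGAA, the core bound by RBPJ, the DNA-binding partner of Notch. On the opposite strand this core reads TTCCCA. The second is the core bound by hypoxia-inducible factors (HIF), searched in the form ACGTG and also in the form GCGTG, on both strands. Capitals mark matches, and the capitals in the Flt1 window are the second HIF form on the opposite strand. Of all 32851 promoter windows of 250 bases, 21.6% held the RBPJ core and 38.6% the HIF core.
Vegfa, chr17:46032378-46032627, minus strand: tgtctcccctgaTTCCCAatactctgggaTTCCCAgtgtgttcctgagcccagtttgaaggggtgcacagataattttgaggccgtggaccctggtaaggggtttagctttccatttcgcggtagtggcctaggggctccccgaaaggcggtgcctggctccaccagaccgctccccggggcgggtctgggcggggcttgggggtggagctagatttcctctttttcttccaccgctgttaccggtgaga
Vegfc, chr8:54077282-54077531, plus strand: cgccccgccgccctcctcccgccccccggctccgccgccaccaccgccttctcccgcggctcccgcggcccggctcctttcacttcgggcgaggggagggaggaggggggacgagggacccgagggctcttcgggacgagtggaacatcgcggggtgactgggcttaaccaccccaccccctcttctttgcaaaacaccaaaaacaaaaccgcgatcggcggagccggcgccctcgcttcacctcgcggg
Kdr, chr5:75978459-75978705, minus strand: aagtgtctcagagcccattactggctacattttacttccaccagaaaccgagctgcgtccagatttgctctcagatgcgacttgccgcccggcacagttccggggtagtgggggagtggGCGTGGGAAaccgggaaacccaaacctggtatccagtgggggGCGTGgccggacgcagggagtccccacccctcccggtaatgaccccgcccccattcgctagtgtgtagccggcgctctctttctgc
Flt1, chr5:147726012-147726261, minus strand: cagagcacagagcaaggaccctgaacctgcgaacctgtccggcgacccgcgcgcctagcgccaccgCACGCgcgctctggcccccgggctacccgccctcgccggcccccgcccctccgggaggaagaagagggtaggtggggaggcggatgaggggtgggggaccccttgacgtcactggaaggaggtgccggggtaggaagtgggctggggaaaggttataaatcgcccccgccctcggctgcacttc
Vegfa held the RBPJ core at 2 places, beginning 238 and 221 bases before the start. Kdr held it once, 128 bases before the start, where it overlaps a HIF core that begins at 131, and held a further HIF core at 89. The Kdr window is printed as 247 bases, without the bases next to the RefSeq start that an annotated exon covers. Its positions are counted from that start and not from the last printed base. Flt1 held a single HIF core, at 184, and Vegfc held neither motif. The Flt4 window, which lies in an annotated exon and is not shown, held neither. The Vegfb window, not shown since Vegfb was called only in KO against het, held 2 HIF cores, at 237 and 81. A match is a description of the letters, and these windows are short.

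The genes around the 7 were counted on lists of the pathway. Esm1, Ets1 and Egln3 are each on more than 1 of these lists and are counted on each. Cdh5 is also among the endothelial markers, so the counts are not separate. The first list holds proteins that bind VEGF or handle its receptors. Of its 13 tested members 5 fell in KO against wt and 1 rose, where 17.3% of all tested genes fell and 14.7% rose, with a median log2 fold change of -0.17. Cdh5, whose product VE-cadherin binds and restrains VEGFR2 at junctions, stood at 421 and 381 CPM in KO and 1981 and 1928 CPM in wt. Epn1, an endocytic adaptor that takes up activated VEGFR2, fell to 15.6 and 12.7 CPM in KO, against 119 and 103 CPM in wt. Unc5b, a netrin receptor gene, was 6.69-fold lower in KO, and Esm1, a VEGF-induced proteoglycan that binds VEGF-A, 3.10-fold lower. Adjusted p of these 4 in edgeR lay between 1.87e-13 and 2.22e-05. The neuropilins, co-receptors for VEGF, were looked up outside the naming rule because they bind several of the ligands. Nrp2 rose 1.39-fold, to 288 ± 17.5 CPM in KO against 206 ± 31.9 in wt (SD, n = 2 each; edgeR adjusted p = 0.00414), and lost its call without KO replicate 2 or wt replicate 5 and with thinning to equal totals. Nrp1 stood at 663 ± 35.9 CPM in KO and 738 ± 111 in wt (SD, n = 2 each) and was not called.

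Kinases and adaptors that relay the signal of the receptors moved both ways. Of 38 tested members 7 rose and 9 fell in KO, near the background shares of 14.7% and 17.3%, and the median was 0.04. With scaling by library size only 19 rose and 6 fell, so the balance of this list depends on the scaling. Ppp3cb, a catalytic subunit of calcineurin, stood at 19.5 and 19.9 CPM in KO and 89.9 and 82.3 CPM in wt. Mapk3, which encodes the kinase ERK1, was 1.82-fold lower in KO. Shc1, an adaptor of receptor tyrosine kinases, was 1.84-fold higher. Adjusted p of these 3 in edgeR lay between 3.05e-09 and 3.72e-06.

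Genes that VEGF is known to induce in endothelial cells were split as well. Of 18 tested 5 rose and 5 fell in KO against wt, with Dll4 itself, which was deleted, among those that fell. Of all tested genes 14.7% rose and 17.3% fell, and with scaling by library size only 9 of the 18 rose and 5 fell. Apln, the apelin gene of sprouting cells, stood at 418 and 465 CPM in KO and 250 and 240 CPM in wt, 1.80-fold higher. Adamts1, a secreted protease gene, was 1.93-fold higher, and Fscn1, an actin-bundling protein gene of cell protrusions, 1.68-fold lower. In het against wt Egr1, an immediate early transcription factor gene, rose and Dll4 fell among the 18. Of all tested genes 0.128% rose and 0.0457% fell in that comparison. Neither Egr1 nor Dll4 was called without wt replicate 4.

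Genes known to be induced by HIF, as Vegfa is, rose in number. Of 13 tested besides Vegfa, 9 rose and 1 fell in KO against wt, where 14.7% of all tested genes rose and 17.3% fell, with a median log2 fold change of 0.69 where the median of all tested genes was -0.02. Bnip3, a mitochondrial protein gene of hypoxia, stood at 154 and 162 CPM in KO and 62.1 and 47.5 CPM in wt. Adm, the adrenomedullin gene, was 2.78-fold higher in KO and P4ha1, a collagen prolyl hydroxylase gene, 2.15-fold higher. Ddit4, an inhibitor of mTORC1 signalling, was 6.38-fold lower. The count of called members lay between 8 and 12 in the 15 alternatives. None of the 13 was called in het against wt.

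Genes on the oxygen sensing list were mixed. Egln1, Egln2, Egln3 and Hif1an, the genes of the oxygen-sensing hydroxylases, were not called in KO against wt with TMM scaling. Their edgeR adjusted p lay between 0.0754 and 0.868. Epas1, which encodes HIF-2α, the HIF subunit typical of endothelium, stood at 76.9 and 85.7 CPM in KO and 381 and 359 CPM in wt, 4.56-fold lower. Hif1a, the gene of HIF-1α, was 1.24-fold higher in KO, at 251 and 242 CPM in KO and 209 and 189 CPM in wt (edgeR adjusted p = 0.0326), and lost that call with DESeq2, with thinning to equal totals and without KO replicate 1, KO replicate 2 or wt replicate 5. Arnt, the common partner subunit, was 1.63-fold higher and Vhl, whose product marks HIF for degradation, 1.59-fold higher. The Arnt call ended without wt replicate 5 and the Vhl call with DESeq2 and without KO replicate 2 or wt replicate 4. Of 8 genes on this list 3 rose and 1 fell, beside 14.7% and 17.3% of all tested genes. Of the 8, 2 were called with DESeq2, without KO replicate 2 or without wt replicate 5, while 7 rose and 1 fell with scaling by library size only.

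Transcription factors of endothelial identity were counted last, since several are known to act on the receptor genes. Of 19 tested 7 fell and 3 rose, beside 17.3% and 14.7% of all tested genes, so that the share that rose was near the background. The median was -0.35, and with scaling by library size only 3 fell and 7 rose. Without wt replicate 5, 6 were called in place of 10. Nr2f2, a factor of venous identity, was 2.63-fold lower, Erg, an ETS factor of endothelial identity, 2.39-fold lower, and Elk3, an ETS-family repressor, 1.44-fold lower. The Elk3 call ended with scaling by library size only. The ETS factor gene Ets2 was 1.45-fold higher. Adjusted p of these 4 in edgeR lay between 1.23e-05 and 3.88e-04.

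**Figure D4:**
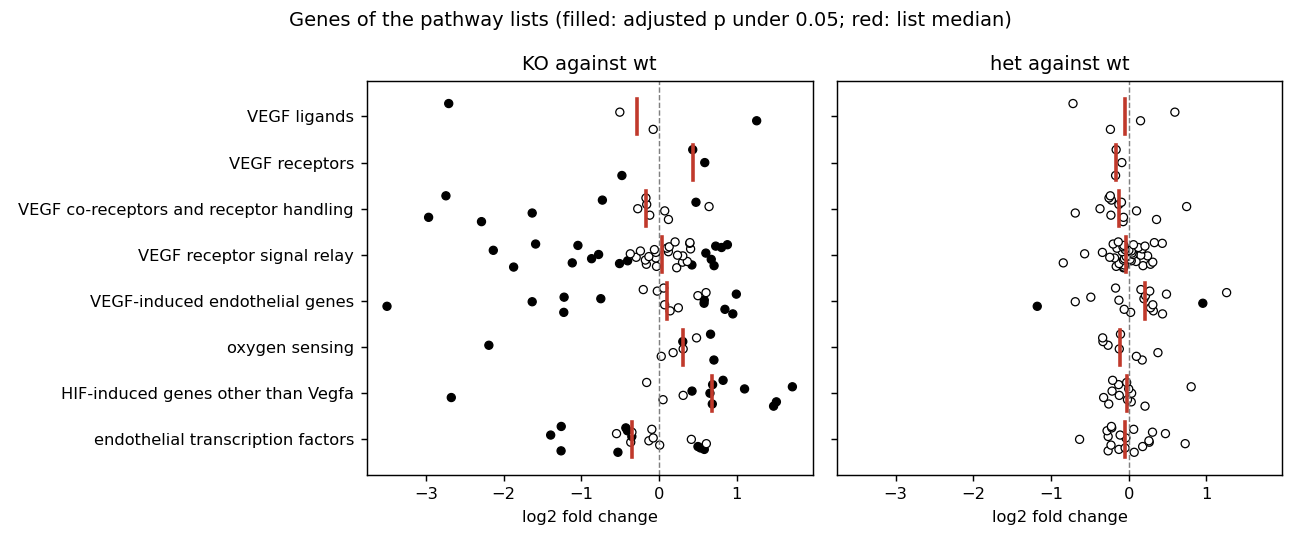
Log2 fold change (horizontal axis) of each tested gene on the VEGF and related lists in KO against wt (left) and het against wt (right); filled points had an edgeR adjusted p under 0.05 and red bars mark list medians. HIF-induced genes lay mostly to the right of 0 in KO, with a median of 0.69, while the signal relay list was centred near 0.

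The genes whose levels ran most like each member over the 6 libraries were found by the root mean square difference of centred log2 CPM among 9072 well-expressed genes. Lman1, which encodes a cargo receptor of the secretory pathway, came closest to Kdr with a difference of 0.0122, and Il6st, the gene of the cytokine receptor subunit gp130, followed at 0.0379. Flt4 was followed most closely by Lcp1 at 0.0436 and Carhsp1 at 0.0463, and Flt1 by Twistnb at 0.0391 and Crip2 at 0.0454. For Vegfa they were Cactin at 0.0863 and Mogs at 0.102, and for Pgf Tpp2 at 0.0353 and Anxa7 at 0.0368. Vegfc had larger differences, Anp32a at 0.182 and Slc45a4 at 0.223, though their Pearson r with Vegfc was 0.989 and 0.988. Vegfb had Rps21 at 0.121 and H2-T22 at 0.134. The difference is not set against the size of a gene's own change, so it does not rank the matches of different members. These likenesses rest on 6 shared libraries of which the 2 KO libraries stand apart, so many genes with a similar change in KO score alike.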

How the data were processed

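The authors deposited expected counts, RSEM's estimates of the reads of each gene, for 6 libraries of 2 per group. The submitters' processing notes name CASAVA, cutadapt, RSEM and GRCm38 and give no versions. The labels' protocols give SMART-Seq v4 amplification and Nextera XT libraries, which do not mark strand, and they differ on whether reads were single or paired. No column of another sample was present. GENCODE M21 (GRCm38) matched 97.7% of 41214 identifiers and gave symbols, positions and lengths, and no annotated gene overlaps a VEGF member.

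Counts were rounded and fitted for all 6 libraries with edgeR 4.0.16 in R 4.3.3: TMM factors, filterByExpr (minimum count 10), a quasi-likelihood fit with robust shrinkage, 3 residual degrees of freedom and two-sided F tests, with Benjamini-Hochberg adjustment over all genes tested. SE is the log2 fold change divided by the root of F, and intervals are 95%. Totals per library limit the precision, and counts of amplified reads without molecular identifiers are not independent molecules. DESeq2 1.42.0, limma-voom 3.58.1, other scalings, filters, thinning and left-out libraries were alternatives.

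The members and lists were chosen with earlier results of these data known, so no count on them is independent evidence. Named genes were the 7 members, up to 4 per list by adjusted p in KO against wt, and the 2 genes most like each member whose mean log2 CPM was 3 or more, leaving out predicted genes. One gene that this rule names is not reported here.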

Additional observations from a re-analysis of the deposited data

How the results depend on the processing

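Values are log2 fold changes unless counts of genes. No paired analysis was possible because het and KO share a single replicate number and wt shares none. With scaling by library size only, KO against wt gave 0.29 for Pgf (reversed), -0.11 for Flt1 and 0.21 for Nrp1 (reversed). KO against het then gave -0.72 for Vegfb, 0.54 for Pgf (called) and 0.071 for Flt1 (reversed). The het midpoint contrast then called 2162 genes and gave -0.68 for Vegfa (called), 0.44 for Vegfc and -0.13 for Flt1 (reversed). With thinning to equal totals KO against wt called 2178 genes, KO against het 2117, het against wt 5 and the midpoint contrast 602. Thinned values in KO against het were -0.76 for Vegfb, -0.023 for Pgf (reversed) and -0.26 for Flt1, and at the midpoint -0.33 for Kdr and -0.38 for Flt4. DESeq2 called 2483 genes in KO against wt and 779 at the midpoint, with -1.11 for Vegfb and -0.29 for Flt1 in KO against het and 0.64 for Vegfc at the midpoint, all 3 no longer called. With no filter, het against wt called 150 genes, Vegfc (-0.72) among them, Flt1 in KO against het was -0.25 and Vegfa at the midpoint -0.51 (called). In het against wt limma-voom called 11 genes and an offset for GC content and length, chosen after the data were seen, 38. That offset gave -0.68 for Vegfb and -0.20 for Flt1 in KO against het, neither called.

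Leaving out each library in turn gave these ranges. In KO against wt 2043 to 3815 genes were called, and values ran between -0.14 and 0.064 for Pgf, 0.27 and 0.68 for Kdr, -0.59 and -0.30 for Flt1, and -0.29 and 0.047 for Nrp1. In het against wt 2 to 76 genes were called, and values ran between -0.20 and 0.35 for Vegfa and between -0.34 and 0.034 for Kdr. In KO against het values ran between -1.57 and -0.58 for Vegfb and between -0.41 and -0.20 for Flt1. At the midpoint 758 to 1153 genes were called, and values ran between -0.83 and -0.28 for Vegfa, 0.33 and 1.32 for Vegfb, 0.39 and 0.91 for Vegfc, -0.48 and -0.31 for Kdr, and -0.43 and -0.34 for Flt4. By longest transcript, Vegfb ranked 6 and Vegfc 7 in KO, and Flt4 ranked 3 and Vegfc 4 in wt. The midpoint contrast was not run on the 2 groups compared, since it needs all 3. The causes of these shifts were not tested. Vegfa, Vegfc and Flt4 kept direction and call in both comparisons with KO under all 15 alternatives. Vegfb rests on the fewest reads and had the largest SE in each comparison.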

Other observations

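Vegfd, the remaining mouse VEGF ligand gene that binds VEGFR3 and one chosen after its values were seen, held 2 and 0 reads in the KO libraries, 1 and 1 in the het libraries and 1 and 0 in the wt libraries, under the limit of 3 counts that a count of 0 allows. In KO replicate 1 Flt1 and Flt4 happened to hold the same count, 3210 reads.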
